A study of Homo sapiens with 3 samples.

Results

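The receptors for IL-3, IL-5, GM-CSF and IL-9 were followed in NB4 cells after silencing of ARID1B, the subunit through which some BAF chromatin remodellers contact DNA. The 5 genes were taken by symbol from a table of 57773 gene IDs, and they were CSF2RB, CSF2RA, IL3RA, IL5RA and IL9R. NB4 is an established line of human acute promyelocytic leukaemia with the PML-RARA fusion. Of 3 polyA RNA-seq libraries, 2 came from cells expressing a short hairpin RNA against ARID1B, a different one in each (hairpins 2 and 3), and 1 from cells with a non-targeting control hairpin. All cells were grown in RPMI medium with fetal bovine serum. No time after infection, selection or number of cultures is given in the sources used here. The p-values below therefore cover these libraries alone, with the variance of each gene drawn towards that of other genes. The spread between the knockdown libraries may be technical or belong to the hairpins.

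CSF2RB encodes the beta common chain, which by itself binds these cytokines poorly and carries the signal. CSF2RA, IL3RA and IL5RA encode the alpha chains that give it specificity for GM-CSF, IL-3 and IL-5. IL9R is the IL-9 binding chain and pairs instead with the common gamma chain IL2RG. The beta common receptors signal through JAK2 and STAT5 and through Ras and PI3 kinase. In the marrow they serve the growth and survival of granulocytes, monocytes, eosinophils, basophils and mast cells. IL3RA, also called CD123, is known as a surface antigen of leukaemic blasts.

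The 5 genes were chosen by symbol, as a family, with their counts and their difference between ARID1B and control hairpins in these libraries already known. Their values are therefore given as a description, with no test. All 5 passed the filter on low counts, and 4 had a mean of at least 1 CPM (counts scaled to library size with TMM factors). Libraries held 59997475 and 62954803 counts under hairpins 2 and 3, against 61640692 in the control. ARID1B itself stood at 36.7 and 35.8 CPM under hairpins 2 and 3, against 84.8 CPM in the control. It fell by 1.23 ± 0.125 (SE) on the log2 scale (edgeR quasi-likelihood test, adjusted p = 1.4e-05). Among the defining genes of promyelocytes, MPO had 836096 and 741714 counts under the hairpins and 682719 in the control, while ELANE had only 4 and 1 counts under the hairpins and 10 in the control. Of 6 promyelocyte markers tested in edgeR, PRTN3 rose (2.11), CTSG fell (-1.81) and the other 4 did not pass. Over all genes tested 8.7% passed an adjusted p of 0.05. Of 5 erythroid and megakaryocyte markers 4 were at 0 in every library. The lymphoid list summed to 132 and 117 CPM under the hairpins and 103 CPM in the control, most of it from NCAM1, with MS4A1 at 0.

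The promoter windows of the receptor genes are shown first because GATA1, GATA2 and other blood transcription factors measured here are known to act on genes of this family. RefSeq sequences of build GRCh38.p14 were at hand for 4 of the 5 genes, CSF2RB being the one without. Each window runs from 250 bases before the annotated gene start to 50 bases after it, which need not be the start used in NB4. Capitals mark matches on either strand to words of GATA factors (AGATAA with its variant AGATAG, as well as TGATAA with its variant TGATAG), or to the word GAGGAAG, which is bound by the ETS factor PU.1. No match overlapped another.
IL9R (chrX:155997446-155997745, plus strand): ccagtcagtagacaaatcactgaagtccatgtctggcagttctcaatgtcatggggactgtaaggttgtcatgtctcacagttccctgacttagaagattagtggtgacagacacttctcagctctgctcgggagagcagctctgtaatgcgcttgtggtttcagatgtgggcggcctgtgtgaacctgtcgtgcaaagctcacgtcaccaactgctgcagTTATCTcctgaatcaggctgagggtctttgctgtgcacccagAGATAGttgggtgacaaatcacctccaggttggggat
IL5RA (chr3:3110325-3110624, minus strand): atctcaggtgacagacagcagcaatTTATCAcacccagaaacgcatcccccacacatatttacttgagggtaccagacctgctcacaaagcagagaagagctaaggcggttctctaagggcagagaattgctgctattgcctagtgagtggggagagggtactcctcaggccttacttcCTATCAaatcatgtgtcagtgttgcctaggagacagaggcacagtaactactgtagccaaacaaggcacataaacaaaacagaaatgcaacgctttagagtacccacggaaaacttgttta
IL3RA (chrX:1336535-1336834, plus strand): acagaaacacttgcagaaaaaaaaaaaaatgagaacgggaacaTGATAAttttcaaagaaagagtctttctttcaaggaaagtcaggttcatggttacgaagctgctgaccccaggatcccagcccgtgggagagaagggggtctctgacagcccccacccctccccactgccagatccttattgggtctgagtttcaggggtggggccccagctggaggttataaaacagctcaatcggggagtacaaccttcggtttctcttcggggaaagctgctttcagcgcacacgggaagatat
CSF2RA (chrX:1268564-1268863, plus strand): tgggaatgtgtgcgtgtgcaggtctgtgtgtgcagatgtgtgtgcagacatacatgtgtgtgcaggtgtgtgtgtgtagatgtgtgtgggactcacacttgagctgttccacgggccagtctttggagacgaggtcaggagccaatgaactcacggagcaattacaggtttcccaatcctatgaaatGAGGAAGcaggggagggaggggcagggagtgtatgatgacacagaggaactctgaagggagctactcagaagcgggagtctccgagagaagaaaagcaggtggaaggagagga
IL9R and IL5RA held 2 GATA words each, IL3RA held 1 and CSF2RA held 0. In IL9R they began at positions -29 and 14 from the start, in IL5RA at -225 and -71, and in IL3RA at -207. The word GAGGAAG was found in CSF2RA alone, at -63. Of 35093 promoter windows of this length, 25% held a GATA word and 13.6% held GAGGAAG. A match is a description of the letters, and binding was not measured.

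CSF2RB (ENSG00000100368, chromosome 22) had the most counts of the receptor genes in both knockdown libraries, a comparison that does not allow for gene length. It had 4747 counts under hairpin 2 and 2667 under hairpin 3, against 497 in the control. In CPM these were 78.9 and 42.8 (mean 60.9 ± 25.6, SD, n = 2), against 8 in the control. Both knockdown libraries lay well above the control, and hairpin 2 well above hairpin 3. The ratio to control was 9.86 under hairpin 2 (exact 95% counting interval 8.99 to 10.8) and 5.35 under hairpin 3 (4.86 to 5.89). The fitted log2 fold change was 2.93 ± 0.277 (SE), place 113 from the top among 20382 genes. In bulk RNA, more cells that express a gene and more RNA per cell cannot be told apart. The annotated pseudogene of this gene, CSF2RBP1, had 0 counts in every library. Counting intervals here and below cover counting error only.

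IL9R (ENSG00000124334), which lies in the second pseudoautosomal region shared by chromosomes X and Y, had the largest fitted log2 fold change of the 5. It had 193 counts under hairpin 2 and 135 under hairpin 3, against 18 in the control. These were 3.21 and 2.17 CPM under the hairpins, against 0.290 CPM in the control. The ratio to control was 11.1 under hairpin 2 (6.82 to 19.1) and 7.47 under hairpin 3 (4.55 to 13.0), and the fitted log2 fold change was 3.20 ± 0.44 (SE), place 83 from the top. The intervals of these ratios overlap those of CSF2RB under the same hairpin, so the order of IL9R and CSF2RB is not settled. As with CSF2RB, hairpin 2 was the higher of the knockdown libraries. An overlapping gene on the same strand, AJ271736.1, takes in 9.2% of the exon length of IL9R and had 578 and 567 counts under the hairpins and 592 in the control. The pseudogene IL9RP3 had 76 and 67 counts under the hairpins and 65 in the control. Neither row followed the pattern of IL9R, although reads that both could hold may have been split.

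CSF2RA (ENSG00000198223), the GM-CSF alpha chain in the first pseudoautosomal region, was less than 2-fold higher and nearly equal under both hairpins. It had 1478 counts under hairpin 2 and 1569 under hairpin 3, against 855 in the control. The levels were 24.6 and 25.2 CPM (mean 24.9 ± 0.418, SD, n = 2), against 13.8 CPM in the control. The ratio to control was 1.78 (1.64 to 1.94) under hairpin 2 and 1.83 (1.68 to 1.99) under hairpin 3, with a fitted log2 fold change of 0.85 ± 0.151 (SE). The hairpins therefore differed for this chain by less than counting error, hairpin 2 standing at 0.977 of hairpin 3 (0.909 to 1.05).

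IL3RA (ENSG00000185291), which neighbours CSF2RA in the same pseudoautosomal region, was above the control by more than counting error under hairpin 3 alone. It had 206 counts under hairpin 2 and 353 under hairpin 3, against 194 in the control, or 3.43 and 5.66 CPM against 3.12 CPM. The ratio to control was 1.10 under hairpin 2, with an interval of 0.897 to 1.34 that spans 1, and 1.81 under hairpin 3 (1.52 to 2.17). The fitted log2 fold change of 0.54 ± 0.282 (SE) averaged these, and it was 0.13 with hairpin 2 alone and 0.86 with hairpin 3 alone. Hairpin 2 stood at 0.605 of hairpin 3 (0.507 to 0.720), so IL3RA ran opposite to CSF2RB and IL9R between the hairpins.

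IL5RA (ENSG00000091181, chromosome 3), the IL-5 alpha chain that defines eosinophil precursors, was the scarcest of the 5. It had 20 counts under hairpin 2 and 26 under hairpin 3, against 5 in the control, or 0.333 and 0.417 CPM against 0.0805 CPM. The ratios of 4.13 (1.5 to 14.1) and 5.18 (1.96 to 17.3) put both knockdown libraries above the control, with wide intervals. The fitted log2 fold change was 2.19 ± 0.709 (SE). A difference between the hairpins was not detectable at this depth, hairpin 2 standing at 0.797 of hairpin 3 (0.422 to 1.49).

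**Figure D1:**
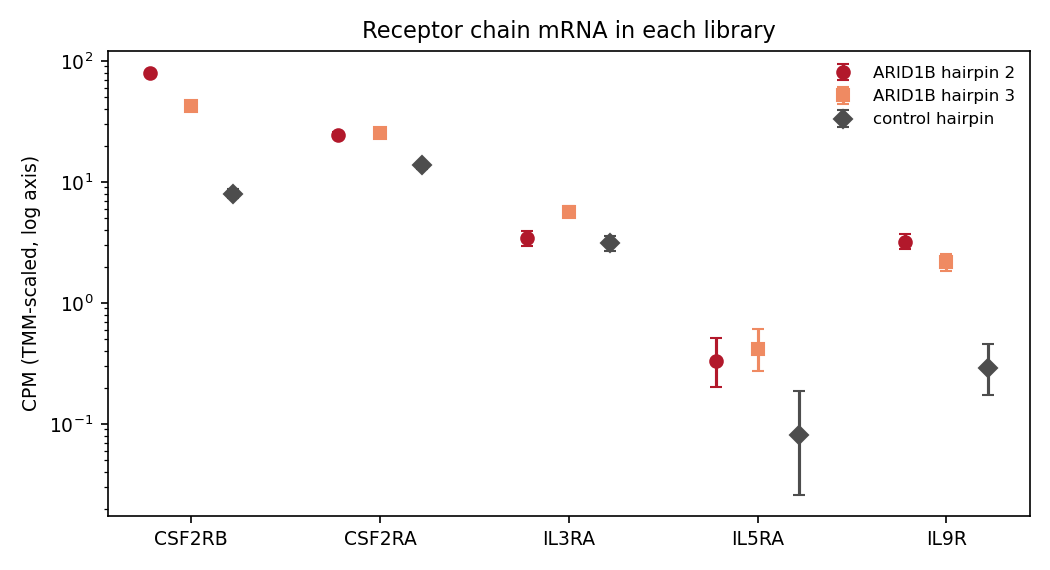
CPM of the 5 receptor genes in each library on a log axis, hairpin 2, hairpin 3 and control from left to right, with exact 95% counting intervals as bars. CSF2RB stood at 78.9 and 42.8 CPM under the hairpins and 8 CPM in the control, and the 3 IL5RA points lay below 1 CPM.

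The differences between the hairpins were set against those of other genes. Among 14977 genes with a mean of at least 1 CPM, 1.09% were at least as far apart between hairpins 2 and 3 as CSF2RB, which differed by 0.88 on the log2 scale. The share was 2.11% for IL3RA (hairpin 2 minus hairpin 3, -0.72), 4.17% for IL9R (0.56) and 85.6% for CSF2RA (-0.03). With 1 library per hairpin, a difference between hairpins cannot be told apart from one between libraries.

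**Figure D2:**
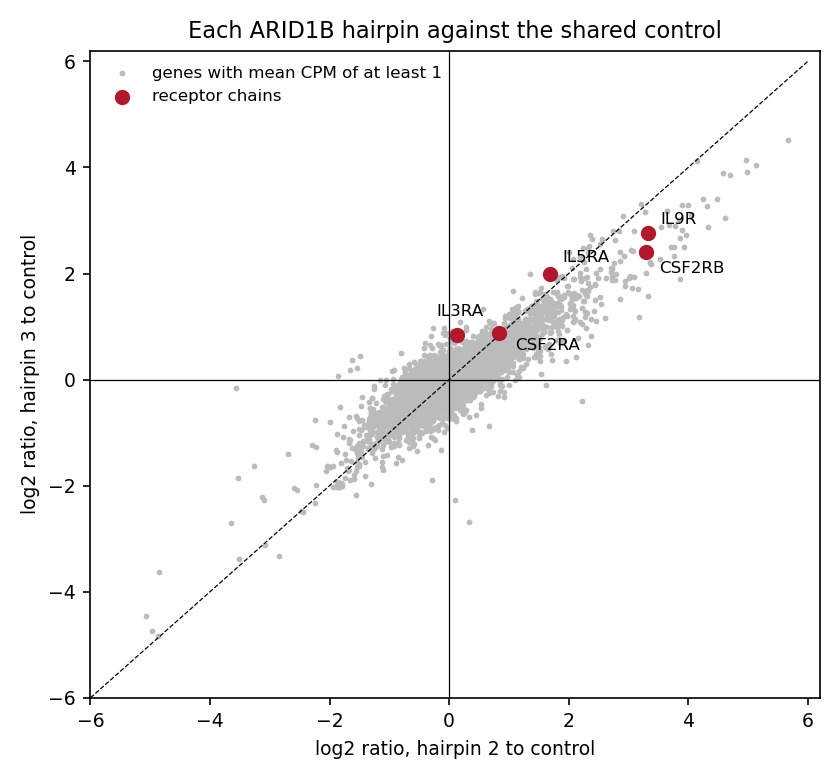
Log2 ratio to the control library under hairpin 2 (x) and hairpin 3 (y), computed with a prior count of 2; grey points are genes with a mean of at least 1 CPM, red points the receptor genes, and the dashed line marks equal ratios. CSF2RB (3.30 and 2.41) and IL9R (3.33 and 2.77) lie below the line and IL3RA (0.13 and 0.85) above it; both axes share the control, so grey points along the line are no sign of agreement.

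Because chains assemble into receptors, their levels were also compared with each other, per kilobase of merged exon length. Under hairpin 2 CSF2RB stood at 15.8 CPM per kb, CSF2RA at 6.42, IL3RA at 2, IL9R at 1.28 and IL5RA at 0.0504. Under hairpin 3 the same order held, with CSF2RB at 8.56 CPM per kb, CSF2RA at 6.57, IL3RA at 3.31, IL9R at 0.865 and IL5RA at 0.0632. In the control CSF2RA led at 3.59 CPM per kb, followed by IL3RA at 1.83, CSF2RB at 1.60, IL9R at 0.116 and IL5RA at 0.0122. The beta common chain thus ranked highest under both hairpins and below CSF2RA and IL3RA in the control. It made up 61.8% and 44.2% of the summed level per kb of the 5 chains under hairpins 2 and 3, against 22.4% in the control. The sum takes in IL9R, which pairs with IL2RG and not with the beta common chain. These shares, and close neighbours in the order, depend on the length used. Per kb of the median coding transcript, a length chosen after seeing the data, CSF2RA was ahead of CSF2RB under hairpin 3 (15.5 against 12.3 CPM per kb) and CSF2RB ahead of IL3RA in the control (2.29 against 2.12). The change in the ratio of beta to alpha counts is free of length. CSF2RB counts were 3.21 and 1.70 times those of CSF2RA under hairpins 2 and 3, against 0.581 times in the control, a ratio 5.53 and 2.92 times that of the control.

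**Figure D3:**
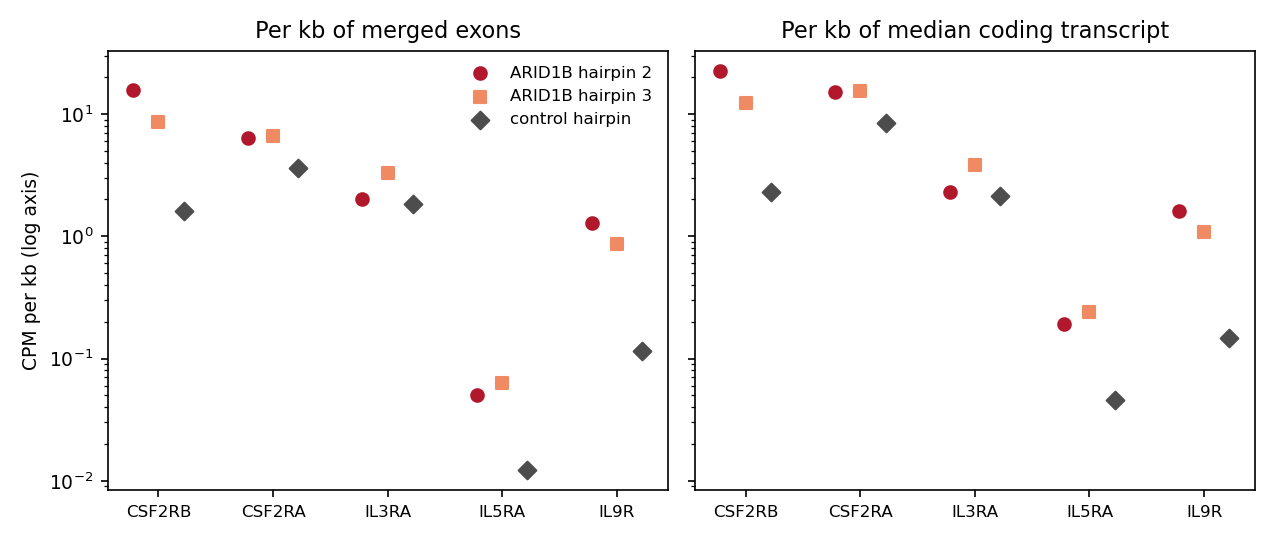
Level of each receptor gene in CPM per kb on a log axis, by merged exon length (left panel) and by median coding transcript length (right panel), with hairpin 2, hairpin 3 and control from left to right for each gene. By merged exons CSF2RB was at 15.8 and 8.56 under the hairpins, above CSF2RA, and at 1.60 in the control, below it.

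Reads from pseudoautosomal genes can align to both sex chromosomes and be dropped, which bears on CSF2RA, IL3RA and IL9R. These reads were counted at least in part, under 1 ID a gene. SLC25A6, the adenine nucleotide carrier of this region, had 13522 and 14963 counts under the hairpins and 16650 in the control. VAMP7, a vesicle fusion protein gene next to IL9R, had 1398 and 1559 counts under the hairpins and 1310 in the control. Of the other 15 pseudoautosomal genes on the list, 11 were tested in edgeR and 0 passed with the settings used throughout, with a median log2 fold change of -0.06. In the same test 8.7% of all 20382 genes passed, so 0 of 11 lies near that share. PPP2R3B passed as lower with upper quartile factors, with library size alone and with the legacy fit. The log2 fold changes of the 11 ran from -0.52 (PPP2R3B, a phosphatase subunit) to 0.28 (CD99, a surface glycoprotein). CRLF2, the TSLP receptor chain beside CSF2RA, had 6 and 5 counts under the hairpins and 2 in the control, and was not tested.

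Transcripts of the ligands were scarce in every library. IL3 was at 0 throughout. An approximate 95% upper bound for a count of 0 is 3 counts. That equals 0.0499 and 0.0481 CPM under hairpins 2 and 3 and 0.0483 CPM in the control. IL5 had 3 and 1 counts under hairpins 2 and 3 and 0 in the control. CSF2, which encodes GM-CSF, and IL9 each had 0 and 1 counts under the hairpins and 0 in the control. None of the 4 reached the filter for testing.

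Of 27 other class I cytokine receptor chains, 18 passed the filter on low counts and were tested, and 3 rose and 0 fell. Over all 20382 genes tested 5.49% were called higher and 3.21% lower, 8.7% in either direction (edgeR quasi-likelihood test, Benjamini-Hochberg adjusted p under 0.05), with a median log2 fold change of -0.01, against 0.29 for these chains. IL2RG, the common gamma chain with which IL9R pairs, had 11960 and 12623 counts under the hairpins and 7906 in the control (log2 fold change 0.66 ± 0.134, SE, adjusted p = 0.0048). IL2RB, the beta chain of the IL-2 and IL-15 receptors, rose by 2.14 ± 0.465, with 64 and 85 counts under the hairpins and 17 in the control. IL12RB1, a chain of the IL-12 and IL-23 receptors, rose by 2.64 ± 0.682, with 47 and 28 counts under the hairpins and 6 in the control. The calls of IL2RB and IL12RB1 were lost with DESeq2. The G-CSF receptor CSF3R (0.33), the IL-6 receptor IL6R (-0.17) and the IL-27 receptor IL27RA (0.29) did not pass. GENCODE 29 annotates a second gene over 50.8% of the exon length of IL2RG, so its counts may include reads that cannot be assigned.

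Among 28 measured genes of proximal signalling, 4 rose and 0 fell, against 5.49% higher and 3.21% lower over all genes tested. The list median was 0.06. The Src family kinase LYN, which binds the beta common chain, had 4654 and 4706 counts under the hairpins and 2501 in the control (0.92 ± 0.134, edgeR adjusted p = 0.00029). The kinases TEC and FES rose by 0.95 ± 0.227 and 0.75 ± 0.133, and the Rac exchange factor VAV1 by 0.64 ± 0.144. The call of TEC was lost with DESeq2. JAK2, the kinase bound to the beta common chain, had 1016 and 1148 counts under the hairpins and 1372 in the control and did not pass (-0.32 ± 0.148). The related kinase TYK2 had 0.33 ± 0.159 and did not pass. JAK3, also on this list, had 2 and 1 counts under the hairpins and 0 in the control, and was not tested. STAT5A (-0.05) and STAT5B (0.01), the main transcription factors downstream, and the adaptor protein gene YWHAZ (0.19), whose product binds the beta chain, also did not pass.

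Genes that restrain these receptors moved in both directions. Of 16 measured, 5 rose and 2 fell, against 5.49% and 3.21% of all genes tested, with a list median of 0.03. SOCS1, an inhibitor of JAK kinases, rose by 1.59 ± 0.414, with 99 and 74 counts under the hairpins and 29 in the control. The adaptor DOK2 rose by 1.39 ± 0.406, the phosphatase PTPN6 (SHP-1) by 0.76 ± 0.143, the JAK2 inhibitor SH2B3 (LNK) by 0.64 ± 0.14 and the phosphatase PTPRC (CD45) by 0.64 ± 0.17. SOCS2 fell, with 686 and 789 counts under the hairpins and 1246 in the control (-0.74 ± 0.155, edgeR adjusted p = 0.006), as did the ubiquitin ligase CBLB (-0.69 ± 0.203). With DESeq2 4 of these 7 passed, SOCS1, CBLB and DOK2 being lost, and with robust empirical Bayes 4, CBLB, DOK2 and PTPRC being lost.

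Among 15 measured STAT5 targets, 6 rose and 1 fell, against 5.49% and 3.21% of all genes tested. The list median was 0.38. SOCS1 and SOCS2 belong to this list too and are given above. The survival kinases PIM1 and PIM2 rose by 1.06 ± 0.188 and 0.57 ± 0.135, PIM1 with 822 and 725 counts under the hairpins and 377 in the control. Oncostatin M (OSM) rose by 0.74 ± 0.218, the survival gene BCL2L1 by 0.55 ± 0.144 and the transferrin receptor TFRC by 0.47 ± 0.138. CISH, the feedback inhibitor induced by STAT5 after IL-3 or GM-CSF, had 877 and 928 counts under the hairpins and 814 in the control and did not pass (0.17 ± 0.159). MYC, the gene of the list with the most counts, had 56470 and 70336 counts under the hairpins and 93523 in the control and did not pass (-0.54 ± 0.175), but was called lower with DESeq2, upper quartile factors, library size alone and the legacy fit. OSM and BCL2L1 were lost with DESeq2, and OSM and TFRC with upper quartile factors and with robust empirical Bayes. An antisense gene, ABALON, covers 43% of the exon length of BCL2L1, and strand use in the counting is not given.

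Of 17 transcription regulators of this receptor family and its lineages, 6 rose and 0 fell, with a list median of 0.35. Over all genes tested the shares were 5.49% higher and 3.21% lower. GATA1 had 942 and 510 counts under hairpins 2 and 3 and 57 in the control (3.70 ± 0.374, edgeR adjusted p = 1.3e-05), and like CSF2RB it was higher under hairpin 2 than under hairpin 3. ID2, an inhibitor of helix-loop-helix factors, rose by 1.83 ± 0.267, GATA2 by 1.38 ± 0.142, and ZFPM1, the GATA1 cofactor, by 0.70 ± 0.183. CEBPA and CEBPB, basic leucine zipper factors of myeloid cells, rose by 0.74 ± 0.141 and 0.71 ± 0.174. SPI1, which encodes PU.1, had 0.50 ± 0.153 and RFX2, a factor of the family that binds the IL5RA promoter, -0.57 ± 0.176, and neither passed. GATA1 and CEBPB were lost with robust empirical Bayes, ZFPM1 with DESeq2, and ZFPM1 and CEBPB with a mean of at least 1 CPM. With library size alone and with the legacy fit SPI1 passed as higher and RFX2 as lower, as did SPI1 with DESeq2-type size factors and RFX2 with upper quartile factors. A gene on the other strand covers 25% of the exon length of CEBPA.

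**Figure D4:**
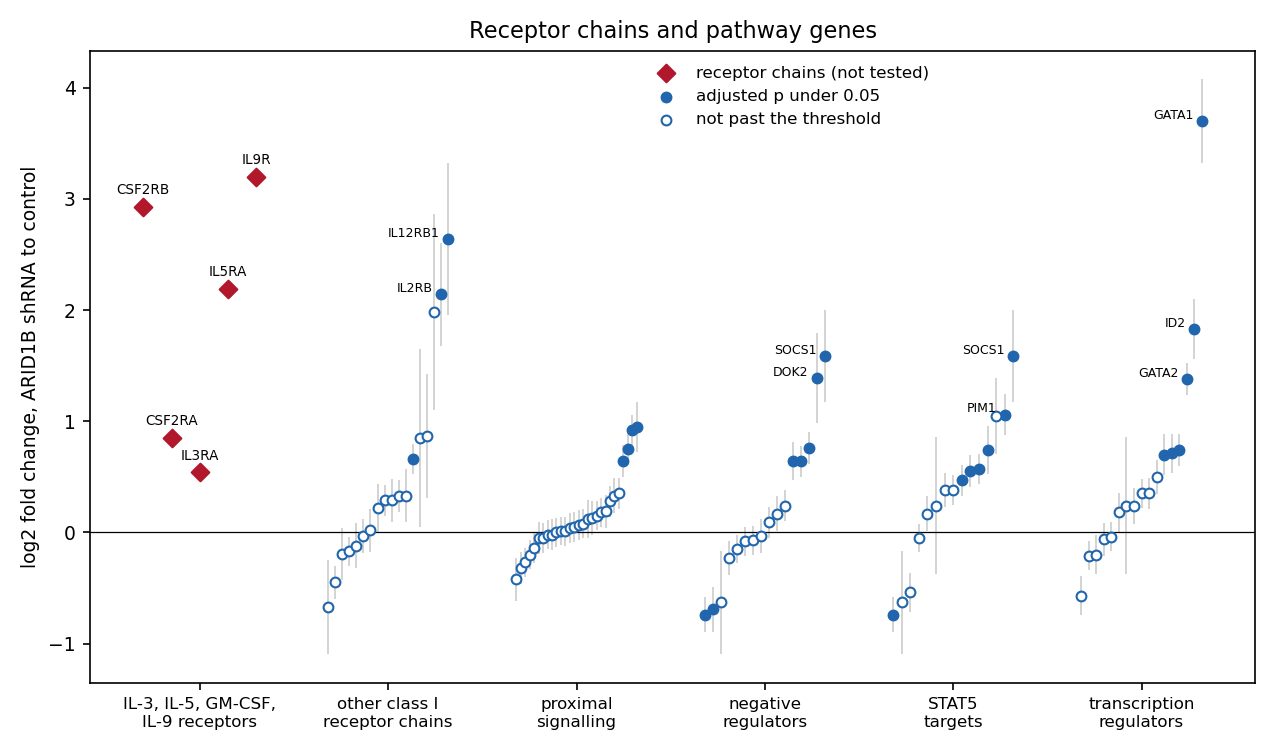
Fitted log2 fold change of ARID1B shRNA to control for the receptor genes (diamonds, not tested) and for the measured genes of each list, ordered by value, with standard errors as grey bars; filled points passed an adjusted p of 0.05 in edgeR, and called genes past 1 are named. CSF2RB at 2.93 and IL9R at 3.20 lie above every gene of the lists shown except GATA1 at 3.70.

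Markers of eosinophils, basophils and mast cells, which are among the cells served by these receptors, were higher beside the receptor genes. Of 12 listed markers 11 were measured, and 9 rose and 0 fell, against 5.49% and 3.21% of all genes tested. Calls in this and the other marker lists were not followed under other settings. Of the 9, CLC and PRG3 had means below 1 CPM (0.859 and 0.89), with 3 and 9 counts in the control. Their summed level was 2156 and 1132 CPM under hairpins 2 and 3 and 92.6 CPM in the control. Most of this came from PRG2 (1260 and 709 CPM under the hairpins and 66.7 CPM in the control), EPX and HDC, and another gene on the same strand covers 43% of the exon length of PRG2. In 7 of the 11 the level was higher under hairpin 2 than under hairpin 3. The defining receptor FCER1A was at 0 in every library, and CCR3 had 22 and 12 counts under the hairpins and 9 in the control. Monocyte markers summed to 71.1 and 50.6 CPM under the hairpins and 31.7 CPM in the control. Of 4 measured, FCN1 (1.52) and CD68 (0.88) were called higher and 0 lower, and CSF1R (-0.42) and CD14 (1.53) did not pass. The shares over all genes tested were again 5.49% and 3.21%. Another gene on the same strand, AC016876.2, covers 81.7% of the exon length of CD68. CD14 had 16 and 13 counts under the hairpins and 5 in the control. The part of such cells or states in the receptor values was not tested.

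The genes most like each receptor gene were found by the distance between pairs of log2 ratios to control, over the 2 knockdown libraries and 14977 genes. Nearest to CSF2RB were the keratin KRT86, CD86, a ligand for T cell costimulation, CD74, the MHC class II invariant chain, the hexose transporter SLC2A6 and PCYT1B, an enzyme of phosphatidylcholine synthesis, at distances of 0.047 to 0.23. CD86, for example, had 234 and 135 counts under hairpins 2 and 3 and 24 in the control. The nearest to IL9R were the natural killer receptor NCR3, the antisense gene AL359555.1, CSF2RB itself, KRT86 and AIF1L, at 0.23 to 0.37. CSF2RB stood at a distance of 0.36 from IL9R. For CSF2RA they were TNFRSF14-AS1, the transcription factor KLF10, the lysosomal protein gene PSAP, FHDC1 and PHTF2, at 0.0041 to 0.038, where genes lie densely. For IL3RA they were the pseudogenes PPIAP31 and PPIAP22, the mitochondrial transfer RNA MT-TF, the microRNA host MIR17HG and the remodeller CHD5, at 0.05 to 0.16.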

How the data were processed

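RNA from 3 NB4 libraries was measured. The authors deposited whole-number read counts per gene, without normalization. STAR, featureCounts and Cufflinks and the build hg19 are named per the submitters' processing notes; the annotation release and any use of strand are not given in those sources. Of 57773 IDs 24848 had 0 counts in all libraries. GENCODE 29, which is of another build, named 52338 IDs and served for names, exon lengths and overlaps, and RefSeq GRCh38.p14 for promoters.

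Tests used edgeR 4.0.16 in R 4.3.3: filterByExpr at a minimum count of 10 (20382 genes), TMM factors (1.0024 and 0.9903 for hairpins 2 and 3, 1.0074 for the control), glmQLFit with legacy = FALSE and glmQLFTest, two-sided, ARID1B shRNA against control. A design of 2 libraries against 1 leaves 1 residual degree of freedom, the difference between the hairpins, and the lone control was assumed to vary like them. The variance of each gene was drawn towards that of other genes, with 14.8 prior degrees of freedom. Genes on opposite sides of the control could hardly be called. The script was tested on simulated data. Each standard error was taken as the size of the log2 fold change over the root of its F statistic. Ratios carry exact 95% intervals for counting error, which treat every read as an independent count. Reads have no molecular identifiers, so repeated reads of 1 molecule are not recognised and these intervals may be too narrow. DESeq2 1.42.0, other scalings, filters and fits were alternatives.

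The receptor genes and gene lists were chosen with earlier results of these data known. Up to 6 genes of each list were named, called genes first by size of change and then by mean CPM, with all pseudoautosomal genes and ligands open to naming, and the 5 genes nearest in pattern to each receptor gene with a mean of at least 1 CPM. JAK2, JAK3, STAT5A, STAT5B, CISH, TFRC, MYC, SPI1, RFX2, the marker genes and the seventh of the called negative regulators were named after their values were seen. A gene of the proximal signalling list is not reported here and is not in its counts.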

Additional observations from a re-analysis of the deposited data

How the results depend on the processing

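No paired analysis was possible with 1 control library, and the numbers 2 and 3 of the ARID1B shRNA libraries name hairpins. The fitted log2 fold changes of the 5 receptor genes stayed positive under the 8 other scalings, filters and fits (7 for IL5RA, which a mean of at least 1 CPM removes), from 2.88 to 2.94 for CSF2RB, 0.80 to 0.87 for CSF2RA, 0.49 to 0.56 for IL3RA, 2.15 to 2.23 for IL5RA and 3.15 to 3.22 for IL9R. CSF2RA, at 0.85, moved by more than the spread between hairpins only with upper quartile factors (0.80). With 1 hairpin left out, which leaves values without a test, they ran from 2.42 to 3.30, 0.84 to 0.87, 0.13 to 0.86, 2.02 to 2.34 and 2.89 to 3.46 in the same order, and ARID1B from -1.24 to -1.21. IL3RA is the value that 1 library decides. With a prior count of 2 the log2 ratios of IL5RA were 1.69 and 1.99 under hairpins 2 and 3. A prior count of 0.5 put them at 1.94 and 2.26, a move larger than the spread between hairpins. Counts of list calls have no value with 1 hairpin left out. The ligands did not reach the filter for testing and were not followed under the alternatives.

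Without a filter on low counts 0 genes were called higher and 0 lower in edgeR, where 3218 had an unadjusted p under 0.05 (4226 with the filter). There 0 genes of each list passed, and ARID1B did not pass at -1.23 (adjusted p = 0.46, from 4e-10 to 0.46 over the alternatives). The cause was not tested. With a mean of at least 1 CPM 622 genes were called higher and 338 lower. Under that filter 3 negative regulators, 3 STAT5 targets, 4 transcription regulators and 1 other receptor chain passed. With robust empirical Bayes 4 negative regulators passed. With DESeq2 761 genes were called higher and 282 lower, with 4 negative regulators and 1 other receptor chain. The causes of these differences were not tested. IL5RA, with 5 control counts, is the receptor gene most limited by depth.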
